A study of Mus musculus with 3 samples.

Results

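The genes described are 9 members of the ubiquitin system that act in spermatids or are known from the testis, out of 22843 genes in the deposited expression table. They were chosen by symbol: the E2 conjugating enzymes Ube2j1 and Ube2b, the RING ligase genes Rnf133, Rnf148 and Rnf151, the cullin scaffold Cul3 with its adaptor Klhl10, the HECT ligase Herc4 and the ubiquilin-like gene Ubqlnl. All 9 were in the table. The study knocked down Gm4665, a long non-coding RNA, in the mouse testis. AAV9 carrying a short hairpin and red fluorescent protein (RFP) was injected into testes of ICR mice at postnatal day 21, one testis with a hairpin against Gm4665 and the contralateral one with the control hairpin. After removal of somatic cells, RFP+ germ cells were sorted by flow cytometry for 10x Genomics 3' V2 libraries, with 3 mice per condition, so each library pools animals. There was 1 library for hairpin 1 (shRNA1), 1 for hairpin 2 (shRNA2) and 1 for the control hairpin (shCtrl), and all 3 carried AAV9, a hairpin and RFP.

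Ubiquitin is charged by an E1 enzyme, passed to an E2 conjugating enzyme and attached to a substrate with the help of an E3 ligase. RING ligases bring the E2 to the substrate, cullin ligases do so through an exchangeable adaptor, and HECT ligases carry the ubiquitin themselves before handing it on. Ubiquilins bind ubiquitin chains and the proteasome and so shuttle substrates. In spermatids this system serves the replacement of histones, protein quality control in the endoplasmic reticulum and the shedding of cytoplasm.

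The libraries held 1732 cells (shRNA1), 1873 cells (shRNA2) and 1418 cells (shCtrl), with 38330044, 44640351 and 40405313 UMIs (unique molecular identifiers, 1 per captured transcript) in the same order. Median UMIs per cell were 14667.5 and 16518 in the knockdown libraries and 19366 in shCtrl, and the mean mitochondrial share of a cell's UMIs was 1.22% and 1.43% against 0.662%. Shared cell barcodes numbered 7 between the hairpin libraries, 6 between shRNA1 and shCtrl and 5 between shRNA2 and shCtrl. The target, Gm4665, stood at 52.8 UMIs per 1000000 UMIs of the library (CPM) in shRNA1 and 79.1 CPM in shRNA2, against 311 CPM in shCtrl. Cells fell into 20 clusters made without the 9 genes, and 16 of them were named as 5 germ classes from marker genes. Of the cells in shRNA1 and shRNA2, 37.9% and 26% were elongating and condensing spermatids, against 44.2% in shCtrl, and round spermatids were 23.3% and 20.5% against 27.7%. Pachytene to diplotene spermatocytes were 16.7% and 16.7% against 8.11%, spermatogonia 8.83% and 9.72% against 3.95%, and leptotene to zygotene spermatocytes 3.98% and 11.5% against 5.99%. One cluster mixed Sertoli and spermatid RNA, and 3 clusters were non-germ cells (macrophage, B and plasma cell markers), with 92, 179 and 19 cells. With 1 library per group no difference can be tested, and the hairpin cannot be told apart from any other difference between libraries. The intervals given are 95% intervals that cover counting error only (exact Poisson for levels, exact binomial for shares and ratios).

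The start sites of the genes differ in how many CpG they hold. RefSeq promoters (250 bases before to 50 bases after the start, build GRCm38.p6, the assembly of mm10) were found for 8 of the 9 genes. They are shown for the 3 RING ligase genes and for Ube2j1 because these hold the fewest and the most CpG among the genes (Rnf151 is shown as the third RING ligase gene), with each CpG in capitals and the strand of the gene read 5′ to 3′.

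Rnf133, chr6:23650256-23650555, minus strand: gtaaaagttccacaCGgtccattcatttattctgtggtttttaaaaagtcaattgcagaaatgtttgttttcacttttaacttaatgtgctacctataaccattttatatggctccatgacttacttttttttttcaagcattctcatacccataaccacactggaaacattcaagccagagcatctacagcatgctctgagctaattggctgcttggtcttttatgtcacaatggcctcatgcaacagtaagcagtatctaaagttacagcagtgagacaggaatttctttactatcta

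Rnf148, chr6:23655087-23655386, minus strand: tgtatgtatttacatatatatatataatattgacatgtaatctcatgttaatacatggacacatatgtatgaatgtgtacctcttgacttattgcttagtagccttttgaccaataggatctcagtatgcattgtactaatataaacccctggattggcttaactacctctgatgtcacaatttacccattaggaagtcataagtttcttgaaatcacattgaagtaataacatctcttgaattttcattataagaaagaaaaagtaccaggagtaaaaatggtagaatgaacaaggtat

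Rnf151, chr17:24718008-24718307, minus strand: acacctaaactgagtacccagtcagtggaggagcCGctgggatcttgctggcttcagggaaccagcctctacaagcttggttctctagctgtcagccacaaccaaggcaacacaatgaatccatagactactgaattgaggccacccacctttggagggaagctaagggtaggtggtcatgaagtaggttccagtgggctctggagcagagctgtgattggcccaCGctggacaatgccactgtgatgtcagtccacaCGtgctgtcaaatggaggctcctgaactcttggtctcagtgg

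Ube2j1, chr4:33031130-33031429, plus strand: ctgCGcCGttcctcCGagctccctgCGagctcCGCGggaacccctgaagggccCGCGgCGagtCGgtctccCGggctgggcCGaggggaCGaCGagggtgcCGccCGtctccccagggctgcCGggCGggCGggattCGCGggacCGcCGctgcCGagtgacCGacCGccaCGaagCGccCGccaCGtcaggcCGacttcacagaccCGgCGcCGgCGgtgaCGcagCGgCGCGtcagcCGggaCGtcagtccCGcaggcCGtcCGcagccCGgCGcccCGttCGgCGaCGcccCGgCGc

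The promoters of Rnf133, Rnf148, Rnf151 and Klhl10 held 1, 0, 3 and 2 CpG, and 31.4% of the 32851 promoters in the table (chromosome 18 not used) hold 3 or fewer. Those of Cul3, Herc4 and Ube2j1 held 29, 20 and 52 CpG, the 2 promoters of Ube2b held 12 and 36, and 39.6% of all promoters hold 12 or more. GC content was 30.7% for Rnf148 and 36.3% for Rnf133 against 78.7% for Ube2j1, with a median of 52.7% over all promoters. TGACG, the half-site of the cAMP response element, was searched on both strands, with a TGACGTCA counted once on each. It occurred 4 times at Ube2j1, 3 times and once at the Ube2b promoters and once at Cul3. The promoters of Rnf133, Rnf148, Rnf151, Klhl10 and Herc4 did not hold it, and 20.8% of all promoters do. These are descriptions of letters in a window and say nothing of whether a factor binds there.

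In the GENCODE vM21 annotation of mm10, Rnf133 (chr6:23648869-23650305) and Rnf148 (chr6:23653898-23655136) lie 3592 bases apart on the minus strand. Both sit inside Cadps2, a gene of the same strand, without sharing an exon with it. Reads from unspliced Cadps2 RNA there could not be told from theirs. Cadps2 itself was at 2.37 CPM in shRNA1, 2.42 CPM in shRNA2 and 2.28 CPM in shCtrl. Rnf148 and Ubqlnl (chr7:104148259-104150556, minus) are annotated with 1 exon. Rnf151 lies at chr17:24715839-24718063 (minus), Klhl10 at chr11:100441917-100457022 (plus), Cul3 at chr1:80264923-80340480 (minus), Herc4 at chr10:63243810-63317878 (plus), Ube2b at chr11:51985497-52000762 (minus) and Ube2j1 at chr4:33031416-33052363 (plus). Ube2b sits inside Gm26551, a long non-coding RNA gene of the same strand, without sharing an exon with it. Reads from unspliced Gm26551 RNA there could not be told from those of Ube2b. At the start of Herc4, an exon overlaps the opposite-strand gene 1700120B22Rik (chr10:63243068-63244153). No source used here gives the strand setting of the counting, so reads within that overlap could not be assigned to one gene. The rest of Herc4, with its 3' end, lies outside 1700120B22Rik. No other gene matched the last 500 bases of any protein-coding transcript of the 9 genes over 90 bases or more at 98% identity.

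Over all cells, 8 of the 9 genes were lower in both knockdown libraries than in shCtrl, as were 28.2% of all genes, while 61% of all genes were higher in both. The RING ligases and Ubqlnl were furthest below shCtrl. The median log2 fold of the 9 genes was -0.30 with hairpin 1 and -0.51 with hairpin 2. The median of all 7068 genes that passed the filter (mean of at least 10 CPM and at least 30 UMIs, which all 9 passed) was 0.23 and 0.25. A gene at the level of the bulk of genes therefore has a log2 fold near 0.2, not 0, and with trimmed-mean (TMM) scaling, which brings that median to -0.04 and -0.09, all 9 genes were below shCtrl. Rnf148 was the only one at least 1.5-fold lower with both hairpins. That fold was reached downward by 4.97% and upward by 11.4% of all genes. Under TMM scaling, which lowers every fold, Rnf133, Rnf151 and Ubqlnl reached that fold as well, and 14.9% of all genes were then 1.5-fold lower and 2.28% higher. The elongating spermatid markers, 15 genes summed, moved the same way, at 106883 and 96986 CPM against 140396 CPM (log2 -0.39 and -0.53). The 15 round spermatid markers summed to 2557 and 2273 CPM against 2541 CPM (log2 0.01 and -0.16).

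**Figure D1:**
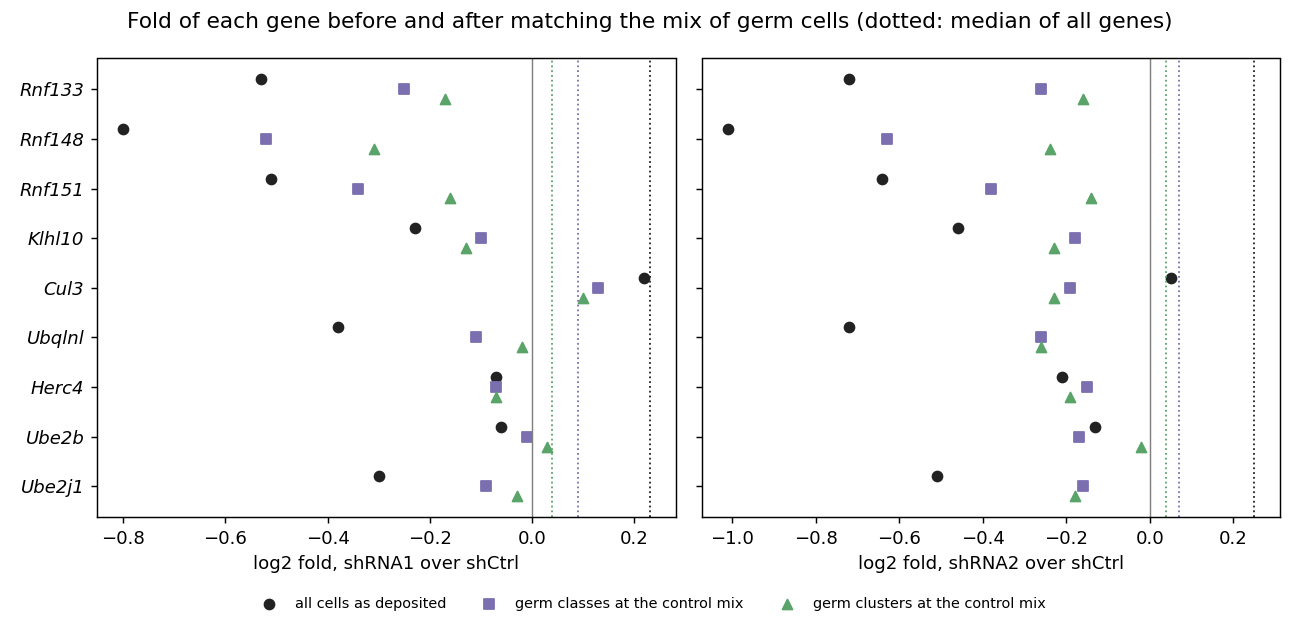
Log2 fold of each gene over shCtrl for hairpin 1 (left) and hairpin 2 (right), over all cells as deposited (circles), with germ classes weighted to their shares of the UMIs of shCtrl (squares) and with germ clusters so weighted (triangles); dotted lines mark the median of all genes in each setting. Rnf148 lies at -0.80 and -1.01 over all cells, and at -0.31 and -0.24 with clusters weighted.

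The share of spermatids differed between libraries, so the folds were recomputed at the germ cell mix of shCtrl, each class or cluster weighted by its share of the germ UMIs there. In a whole library, fewer cells of a type and less RNA per cell cannot be told apart. With the 5 germ classes weighted to the control mix, Rnf148 was at 71.0 CPM in shRNA1 and 65.9 CPM in shRNA2, against 102.3 CPM in shCtrl (log2 -0.52 and -0.63). With the 16 germ clusters so weighted, which was chosen after the values were seen, it was at 82.2 and 86.4 CPM against 102.3 CPM (log2 -0.31 and -0.24). No member was 1.5-fold from shCtrl under either weighting, and few genes were: 1.36% of all genes were lower and 0.952% higher with classes weighted, and 0.469% lower and 0.554% higher with clusters weighted. Cluster weighting left log2 folds of -0.17 and -0.16 for Rnf133, -0.16 and -0.14 for Rnf151, -0.13 and -0.23 for Klhl10, and -0.03 and -0.18 for Ube2j1, beside a median of all genes of 0.04 with either hairpin. Cul3 differed in sign between the hairpins (0.10 and -0.23), as did Ube2b (0.03 and -0.02).

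Ube2j1 encodes an E2 enzyme anchored in the membrane of the endoplasmic reticulum, where it serves the disposal of misfolded proteins. Over all cells it stood at 727.6 CPM in shRNA1 (719.1 to 736.2) and 629.3 CPM in shRNA2 (622 to 636.7), against 895.8 CPM in shCtrl (886.6 to 905.1). The 3 intervals did not overlap, and the knockdown libraries were 1.23 and 1.42 times lower. As means over libraries its level was 252.3 CPM in spermatogonia, 437.3 CPM in leptotene to zygotene spermatocytes, 278.4 CPM in pachytene to diplotene spermatocytes, 604.2 CPM in round and 1256 CPM in elongating and condensing spermatids. The ranges of spermatogonia and pachytene to diplotene spermatocytes overlapped, and the other neighbours in that order of levels were apart. Non-germ cells held 357.8 and 267.2 CPM in shRNA1 and shRNA2, against 229.6 CPM in shCtrl, so the spermatogonial level was within the range of cells that are not germ cells. Within elongating and condensing spermatids the libraries were close, at 1265 and 1205 CPM against 1299 CPM (log2 -0.04 and -0.11). Every elongating cell of shRNA2 and shCtrl and 99.7% of those of shRNA1 had a Ube2j1 UMI.

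Cluster 5, with Klk1b3, Glul and Spem1 among its leading genes, held the most Ube2j1 of the 20 clusters: 1766 CPM in shRNA1 and 1573 CPM in shRNA2, against 1740 CPM in shCtrl. The middle 80% of elongating cells ranged from 677.7 to 1928 CPM in shRNA1 and from 651.5 to 1783 CPM in shRNA2, against 778.4 to 1924 CPM in shCtrl, so the spans overlapped and that of shRNA2 lay lower at both ends.

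Ube2b, the mouse counterpart of yeast RAD6, acts in DNA repair and histone ubiquitination, and male mice without it are infertile. By class means it was the most evenly spread of the genes. Over all cells it was at 311 CPM in shRNA1 (305.5 to 316.7) and 297.5 CPM in shRNA2 (292.5 to 302.6), against 325.1 CPM in shCtrl (319.6 to 330.7). The highest class, leptotene to zygotene spermatocytes, was 1.75 times the lowest, pachytene to diplotene spermatocytes, with class means of 421.2 and 241.2 CPM. Single germ clusters ranged more widely, between 123.6 CPM in cluster 5 and 481.2 CPM in cluster 3. Non-germ cells reached 282.1 and 248.9 CPM against 298.1 CPM. In elongating and condensing spermatids Ube2b was at 297 CPM in shRNA1, 239.6 CPM in shRNA2 and 308.4 CPM in shCtrl, so hairpin 2 stood apart there (log2 -0.36, against -0.05 with hairpin 1). With the clusters of that class weighted to their shares in shCtrl, the log2 folds were -0.02 with either hairpin. In pachytene to diplotene spermatocytes both knockdown libraries were higher, at 254.9 and 246.3 CPM against 222.4 CPM (log2 0.20 and 0.15).

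Rnf133 is a RING ligase of the endoplasmic reticulum made in the testis and a partner of UBE2J1. Over all cells it was at 220.5 CPM in shRNA1 (215.8 to 225.2) and 192.9 CPM in shRNA2 (188.8 to 197), against 318.6 CPM in shCtrl (313.1 to 324.1). The knockdown levels were 1.45 and 1.65 times lower. Its highest class was that of elongating and condensing spermatids, with 424 and 408.7 CPM in shRNA1 and shRNA2 against 451.7 CPM in shCtrl (log2 -0.09 and -0.14). Round spermatids held 192.3 and 214.3 CPM against 299.4 CPM (log2 -0.64 and -0.48), where the elongating markers in the same cells summed to 57984 and 61556 CPM against 79238 CPM (log2 -0.45 and -0.36). The part of such RNA in the round spermatid difference was not tested. Over 8 settings the fold of the class lay between -0.78 and -0.26 with hairpin 1 and between -0.59 and -0.25 with hairpin 2, and the values nearest 0 were those with the clusters of the class weighted to shCtrl.

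The clusters of round spermatids differed strongly in Rnf133. Cluster 1, led by Nim1k and Dyrk4 and holding Cd59b and Tmco5b, was at 347.1 and 340.1 CPM against 403.6 CPM, while cluster 8, led by Slc39a12 and Tssk5, was at 94.8 and 128 CPM against 133.2 CPM. shCtrl had 162 of its 393 round spermatids in cluster 1, against 83 of 403 in shRNA1 and 84 of 384 in shRNA2. Cluster 6, an elongating cluster with Cstl1, had the highest mean, with 565.1 and 467 CPM against 573 CPM, and in shRNA2 cluster 3 was level with it at 466.5 CPM. Spermatogonia (60.3 CPM) and pachytene to diplotene spermatocytes (39.9 CPM) were at or near the non-germ level of 51.0 CPM, all as means over libraries.

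Rnf148, a RING ligase gene beside Rnf133 and of the same family, was the lowest of the group relative to shCtrl. It had 56.3 CPM in shRNA1 (54.0 to 58.8) and 48.6 CPM in shRNA2 (46.6 to 50.7), against 99.1 CPM in shCtrl (96.1 to 102.2), or 2159 and 2170 UMIs against 4004. That was 1.76 and 2.04 times lower, and 2.86% and 2.12% of all genes lay further below. Round spermatids had 94.0 and 109.7 CPM against 149.9 CPM (log2 -0.67 and -0.45), and elongating and condensing spermatids 86.9 and 64.3 CPM against 114.2 CPM (log2 -0.39 and -0.82). Neither class passed 1.5-fold with both hairpins, and with clusters weighted within the class the folds were -0.26 and -0.18 in round and -0.33 and -0.27 in elongating and condensing spermatids.

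Rnf148 was highest in the round clusters 1 and 7 and the elongating clusters 3 and 6. Cluster 3, led by Faiml, was at 158.3 and 176.7 CPM against 203 CPM, and cluster 1 at 169.6 and 173.5 CPM against 193.1 CPM. In cluster 5 it was down at 20.2 and 18.7 CPM against 28.1 CPM. Cluster 3 held 94 cells of shRNA1 and 48 of shRNA2, against 153 of shCtrl. At least 1 Rnf148 UMI was seen in 63.5% and 65.6% of round spermatids against 83.7%, at median depths of 9795 and 12988 UMIs against 14702. In cells thinned to 10000 UMIs the shares were 51.3% (44.1 to 58.4) and 55.8% (49.6 to 61.8), against 71.8% (66.8 to 76.4). Thinned non-germ cells, a class expected to be without this RNA, gave 14.6% and 9.22% against 10.5%.

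In spermatogonia Rnf148 was again the one gene 1.5-fold lower with both hairpins, on 24 and 41 UMIs against 23 (11.8 and 15.8 CPM against 28 CPM). Of all genes in spermatogonia, 5.32% were 1.5-fold lower and 5.82% 1.5-fold higher with both. The non-germ level was 13.1 and 8.996 CPM against 8.944 CPM. The elongating markers within spermatogonia summed to 24193 and 22205 CPM against 33962 CPM (log2 -0.49 and -0.61). The round spermatid markers there summed to 775.6 and 767.6 CPM against 764.5 CPM (log2 0.02 and 0.01). With the clusters of the class weighted to shCtrl the folds were -1.26 and -0.57, the last just short of 1.5-fold (0.585 on the log2 scale), so the count was 0. One of these clusters, cluster 15, was led by Mgp and Dcn, genes of mesenchymal cells, beside Crabp1 and Dmrt1 of spermatogonia.

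Rnf151 encodes a RING protein of the acrosome region, and it had the most UMIs of the 9 genes. It stood at 881.4 CPM in shRNA1 (872 to 890.8) and 803.1 CPM in shRNA2 (794.8 to 811.5), against 1253 CPM in shCtrl (1242 to 1264), 1.42 and 1.56 times lower. Round spermatids were the peak class in every library, at 1625 and 1785 CPM against 2040 CPM (log2 -0.33 and -0.19). Elongating and condensing spermatids had 934.8 and 778.7 CPM against 1247 CPM (log2 -0.41 and -0.68).

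Within the elongating class Rnf151 spanned a wide range of clusters. Cluster 3 had 2220 and 2183 CPM against 2545 CPM, cluster 2 had 744.9 and 730.8 CPM against 955.5 CPM, and cluster 5 had 304.1 and 318.4 CPM against 369 CPM. Of the 5 elongating clusters 4 were below shCtrl with both hairpins, with log2 folds between -0.36 and -0.04 for hairpin 1 and between -0.39 and 0.06 for hairpin 2 over all 5. All 4 round clusters were below shCtrl with both, by log2 folds of -0.21 to -0.08 and -0.20 to -0.03. With clusters weighted within the class, the log2 folds were -0.20 with either hairpin in elongating and condensing spermatids and -0.11 and -0.07 in round spermatids. Of the libraries, shRNA2 had 48 of its 487 elongating cells in cluster 3, against 153 of 627 in shCtrl. Pachytene to diplotene spermatocytes had 548.9 and 532.9 CPM against 497 CPM (log2 0.14 and 0.10), a direction that turned in 2 of 8 settings with hairpin 1 and in 4 of 8 with hairpin 2. Non-germ cells held 287.7 and 244.2 CPM against 232.5 CPM, close to the 325.4 CPM that spermatogonia averaged.

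**Figure D2:**
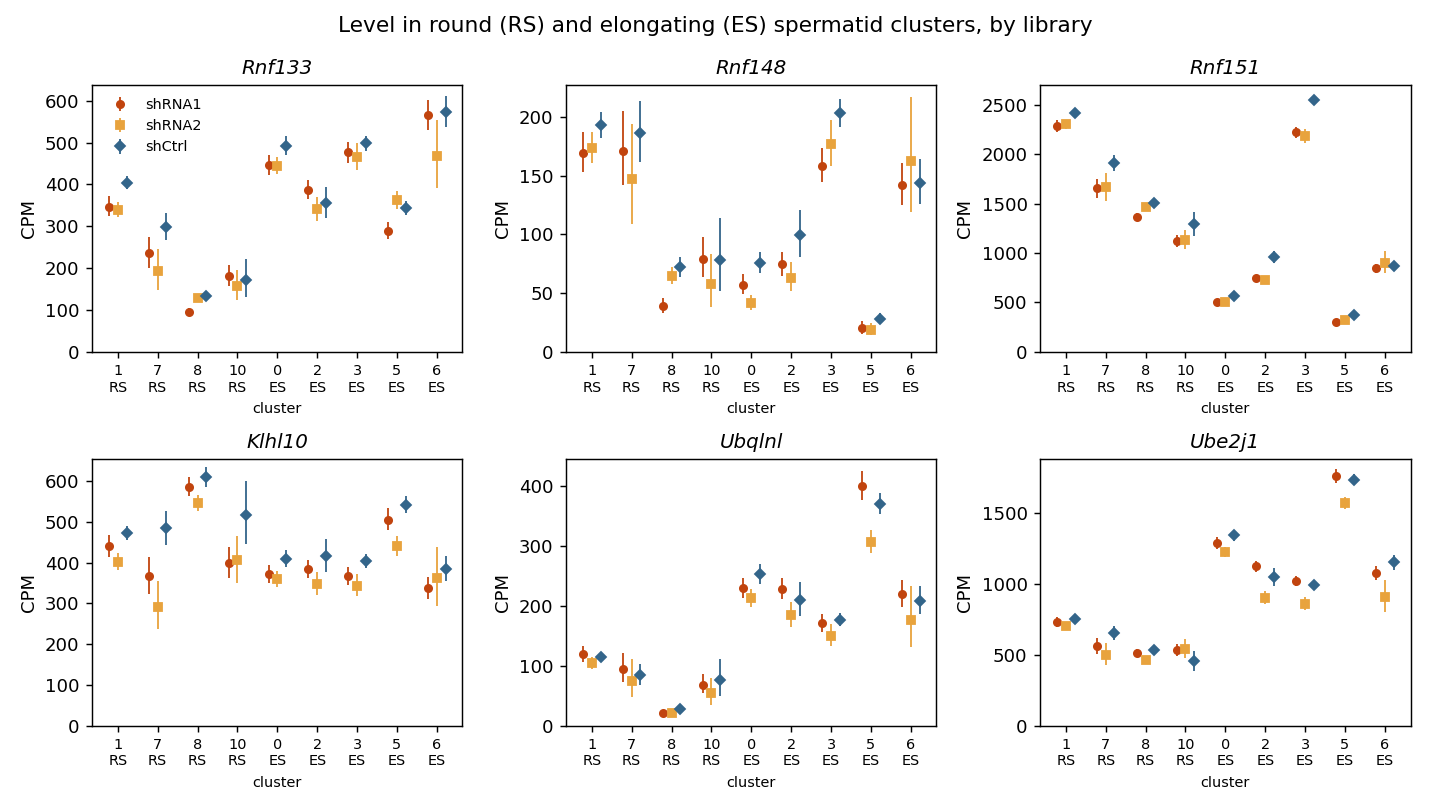
Level in CPM of 6 genes in the 4 round (RS) and 5 elongating (ES) spermatid clusters, one point per library (shRNA1, shRNA2, shCtrl) with the exact Poisson 95% interval. Rnf151 is highest in clusters 1 and 3 and Ubqlnl and Ube2j1 in cluster 5 in all 3 libraries, while Rnf148 is high in clusters 1, 3, 6 and 7 and Rnf133 in clusters 3 and 6.

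KLHL10 is the spermatid adaptor through which CUL3 finds its substrates, and male mice with 1 disrupted copy of Klhl10 are infertile. Klhl10 was at 340.5 CPM in shRNA1 (334.7 to 346.4) and 290.9 CPM in shRNA2 (286 to 296), against 400.3 CPM in shCtrl (394.2 to 406.6), 1.18 and 1.38 times lower. Round spermatids were highest, at 499.6 and 473.8 CPM against 519.1 CPM (log2 -0.06 and -0.13), followed by elongating and condensing spermatids, at 395.9 and 377.4 CPM against 442.1 CPM (log2 -0.16 and -0.23). Its highest clusters were cluster 8 of the round spermatids, with 586.2 and 545.1 CPM against 609.2 CPM, and cluster 5 of the elongating ones, with 505.4 and 439.9 CPM against 541 CPM. It was below shCtrl with both hairpins in all 9 spermatid clusters. Pachytene to diplotene spermatocytes had 245.2 and 215.6 CPM against 203.3 CPM, and non-germ cells 115 and 75.3 CPM against 47.7 CPM. The clusters of that class were far apart: cluster 12, in which 7 round spermatid markers were raised as well, averaged 403 CPM over libraries, and cluster 13 averaged 62.2 CPM, below the non-germ mean of 79.3 CPM.

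Cul3 ran opposite to its adaptor, as it did to the other genes highest in spermatids, Herc4 aside. It fell along development, from class means of 83.3 CPM in spermatogonia and 78.9 CPM in leptotene to zygotene spermatocytes, whose library ranges overlapped, to 38.3 CPM in round and 32.2 CPM in elongating and condensing spermatids, where Klhl10 was highest. Over all cells Cul3 was at 49.3 CPM in shRNA1 (47.1 to 51.5) and 43.7 CPM in shRNA2 (41.7 to 45.6), against 42.1 CPM in shCtrl (40.1 to 44.2). It was the one gene not below shCtrl (log2 0.22 and 0.05), and at the median of all genes with hairpin 1. Under TMM scaling it turned to the other side with both hairpins. In round spermatids the hairpins differed, with 44.8 and 32.1 CPM against 37.9 CPM. The non-germ level was 32.7 and 34.0 CPM against 11.9 CPM, the last on 4 UMIs.

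Herc4, a HECT ligase whose loss in mice leaves sperm with retained cytoplasmic droplets, was the sparsest gene, with 1192 and 1259 UMIs against 1321. It was at 31.1 CPM in shRNA1 (29.4 to 32.9) and 28.2 CPM in shRNA2 (26.7 to 29.8), against 32.7 CPM in shCtrl (31.0 to 34.5), and the intervals of shRNA1 and shCtrl overlapped. Round spermatids were highest, at 55.2 and 49.8 CPM against 52.2 CPM. Elongating and condensing spermatids were lowest by class mean, at 18.4 and 19.2 CPM against 22.4 CPM. Their library range overlapped that of leptotene to zygotene spermatocytes (19.1 to 24.9 CPM). The drop from round to elongating spermatids was seen in each library, and cluster 7 was the peak, at a mean of 68.4 CPM. The elongating level was near that of non-germ cells (18.7 and 11.99 CPM against 14.9 CPM).

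Ubqlnl, a ubiquilin-like gene whose role in the testis is little described, was at 118.4 CPM in shRNA1 (114.9 to 121.9) and 93.3 CPM in shRNA2 (90.5 to 96.2), against 154.3 CPM in shCtrl (150.5 to 158.1), 1.3 and 1.65 times lower. It was the most restricted to late spermatids: elongating and condensing spermatids held 3.61 times the level of round ones and 13.3 times that of pachytene to diplotene spermatocytes, by class means. In elongating cells the libraries were close, at 250.4 and 223.7 CPM against 253.1 CPM (log2 -0.02 and -0.18). Cluster 5 was the peak, at 401.1 and 306.9 CPM against 371.1 CPM, where hairpin 1 was above and hairpin 2 below shCtrl. A UMI was found in 86.9% and 86.1% of thinned elongating cells against 89.1%, and in 9.76% and 16.3% of thinned non-germ cells against 10.5%.

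**Figure D3:**
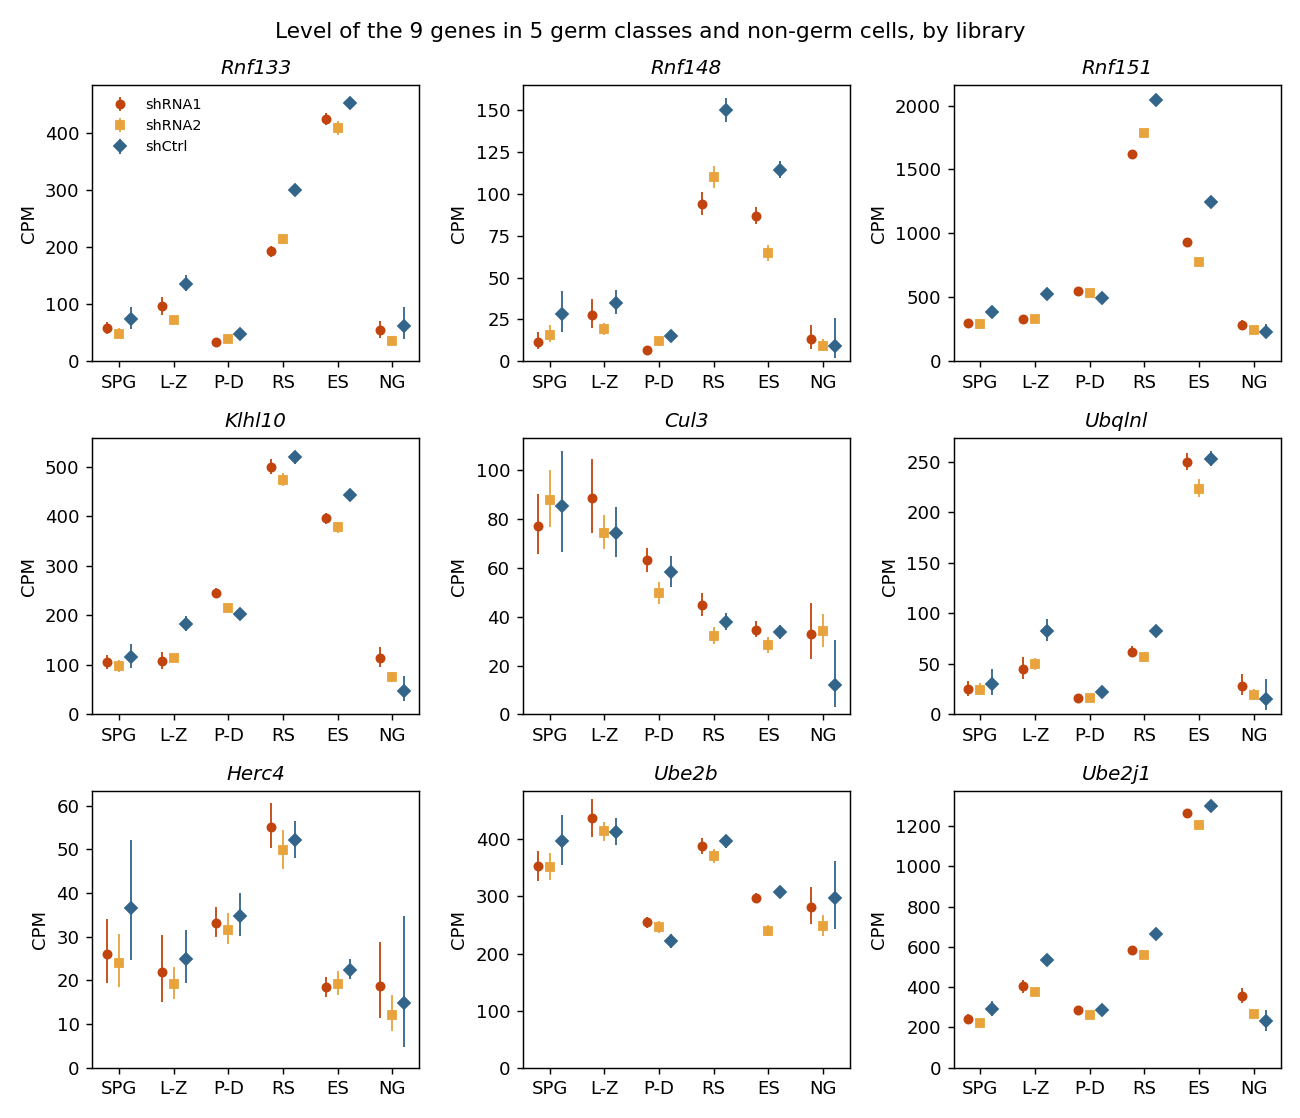
Level in CPM of each gene in spermatogonia (SPG), leptotene to zygotene (L-Z) and pachytene to diplotene (P-D) spermatocytes, round (RS) and elongating and condensing (ES) spermatids and non-germ cells (NG), one point per library with the exact Poisson 95% interval. Rnf133, Ubqlnl and Ube2j1 are highest in elongating spermatids, Rnf148, Rnf151, Klhl10 and Herc4 in round ones, and Cul3 falls from spermatogonia onward.

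Leptotene to zygotene spermatocytes were the class with the most genes past 1.5-fold, namely 3 genes whose highest class is a spermatid class. Rnf151 was at 329.4 and 332.1 CPM against 528.3 CPM (log2 -0.68 and -0.67), Klhl10 at 107.7 and 113.9 CPM against 183.1 CPM (log2 -0.76 and -0.68) and Ubqlnl at 45.5 and 49.7 CPM against 82.8 CPM (log2 -0.85 and -0.73). Across all genes of the class 6.25% were 1.5-fold lower and 2.33% 1.5-fold higher with both hairpins. All 15 elongating spermatid markers were present in these cells, and summed to 44468 and 41774 CPM against 71937 CPM (log2 -0.69 and -0.78), beside these folds. The 15 round spermatid markers summed to 788.3 and 965.8 CPM against 953.1 CPM (log2 -0.27 and 0.02). The part of either kind of spermatid RNA in the difference was not tested. Sertoli markers in the class summed to 118.6 and 175.2 CPM against 210.5 CPM. Cul3 and Ube2b, whose levels in this class are among their highest, were at 88.5 and 74.3 CPM against 74.0 CPM and at 437.1 and 413.8 CPM against 412.6 CPM.

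No member passed 1.5-fold with both hairpins in the other 3 classes. In pachytene to diplotene spermatocytes 1.06% of all genes were 1.5-fold lower and 0.976% higher, in round spermatids 2.53% lower and 3.44% higher, and in elongating and condensing spermatids 1.99% lower and 10.6% higher. The median log2 fold of the 9 genes was -0.01 and -0.14 in pachytene to diplotene spermatocytes, -0.18 and -0.23 in round spermatids and -0.09 and -0.23 in elongating and condensing spermatids. The medians of all genes in these classes were 0.00 and -0.02, 0.11 and 0.07, and 0.07 and 0.04.

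Over 15 pairs of germ class and library, which share depth and library, the log2 level of Rnf133 followed Cst8, an epididymal and testis cystatin (Pearson r = 0.997), and Hmgb4, a testis high mobility group protein (r = 0.995). Ubqlnl followed Spem1, a spermatid protein needed to strip cytoplasm from the sperm head (r = 0.998), and 4933411K16Rik (r = 0.997), and Ube2j1 followed Osbp2, an oxysterol-binding protein, and 1110017D15Rik (r = 0.995 each). Rnf148 followed 2610528A11Rik (r = 0.993) and Tmigd3 (r = 0.991), Rnf151 followed Creb3l4, a membrane-bound transcription factor of spermatids, and 4933417A18Rik (r = 0.989 each), and Klhl10 followed 1700011L22Rik and Ace, angiotensin-converting enzyme with its testis form (r = 0.994 each). Likeness was weaker for Cul3 (Rce1 0.976, Atp5o 0.973), Herc4 (Rbm7 0.956, Shcbp1 0.95) and Ube2b (Fgfr1op 0.967, Rnf5 0.918). Between the members r was 0.970 for Ube2j1 and Ubqlnl, 0.963 for Klhl10 and Rnf151 and 0.959 for Rnf133 and its partner Ube2j1. Rnf133 was about as close to Ubqlnl (0.954) and Rnf148 (0.934). For Cul3 r was -0.920 with Klhl10, -0.842 with Rnf151, -0.794 with Ube2j1 and -0.762 with Rnf133. It was -0.723 with Rnf148, -0.667 with Ubqlnl, -0.164 with Herc4 and 0.393 with Ube2b. These are descriptions over pairs that are not independent samples.

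The wider ubiquitin system was described from 8 lists. Of 135 listed genes 133 were in the table and 100 passed the filter, and with both hairpins 10 of them passed 1.5-fold upward and 3 downward, beside 11.4% and 4.97% of all genes. With TMM scaling the split was 4 higher and 11 lower, beside 2.28% and 14.9% of all genes. The median log2 fold of the 100 genes was 0.22 and 0.26, near that of all genes.

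Of the ubiquitin genes, the polyubiquitin gene Ubb was at 4406 CPM in shRNA1 and 4368 CPM in shRNA2, against 4112 CPM in shCtrl (log2 0.10 and 0.09). Rps27a, a fusion of ubiquitin and a ribosomal protein, was higher over all cells, at 491.8 and 933 CPM against 312.6 CPM, and close to shCtrl in spermatogonia, at 3069 and 3144 CPM against 3027 CPM. It was also higher in round spermatids, at 91.8 and 102.3 CPM against 52.4 CPM (log2 0.80 and 0.95), and in elongating and condensing spermatids, at 61.5 and 88.7 CPM against 37.6 CPM (log2 0.69 and 1.22). Non-germ cells held 4060 and 5302 CPM of Rps27a against 5906 CPM, and were 5.31% and 9.56% of cells against 1.34%. The part of the cell mix in the Rps27a difference over all cells was not tested. The ends of Rps27a and Ubb match 3 and 2 other annotated genes nearly exactly, so their levels are uncertain.

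Among 20 E2 enzymes that passed, none was 1.5-fold from shCtrl with both, and Ube2n, the E2 of lysine-63 chains, was at 1079 and 1002 CPM against 1423 CPM while Ube2s, the chain-extending E2 of mitosis, was at 673.8 and 717.3 CPM against 518.9 CPM and Ube2d3 at 624.9 and 602.6 CPM against 529.3 CPM. None of 12 cullin genes and regulators passed, with Dcun1d1, a cullin neddylation factor, at 640.1 and 576.5 CPM against 900.2 CPM, Rnf7 at 226.1 and 281.6 CPM against 170.2 CPM and Cops5 at 206.4 and 198.6 CPM against 188.6 CPM. None of 7 BTB adaptors of CUL3 passed, with Kctd19 at 92.2 and 89.9 CPM against 75.1 CPM, Kctd13 at 50.9 and 48.8 CPM against 34.7 CPM and Keap1 at 39.6 and 38.0 CPM against 43.2 CPM. None of 6 ubiquilins and shuttle factors passed, with Bag6 at 267.3 and 242 CPM against 268.7 CPM and Ddi1 at 197.9 and 165.1 CPM against 212.7 CPM and Rad23b at 136.7 and 117.6 CPM against 121.5 CPM. The ends of Ube2d3, Dcun1d1 and Keap1 each match 1 other annotated gene, so these levels are uncertain.

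In the endoplasmic reticulum list 2 of 14 genes were higher, Edem1 and Derl3, which handle misfolded glycoproteins. Edem1 was at 16.8 and 33.8 CPM against 4.88 CPM over all cells. Non-germ cells held 442.8 and 411.5 CPM of it against 158 CPM, and elongating and condensing spermatids 2.10 and 3.92 CPM against 1.60 CPM. Derl3 was at 18.65 and 20.4 CPM against 9.11 CPM over all cells. Non-germ cells held 162.6 and 110.6 CPM of Derl3 against 23.85 CPM. Its highest germ class, pachytene to diplotene spermatocytes, had 31.0 and 32 CPM against 26.7 CPM. B and plasma cell markers summed to 611.2 and 1127 CPM over all cells, against 20.2 CPM in shCtrl. Their part in the Edem1 and Derl3 differences was not tested. Ufd1l, Derl1 and Rnf139, the most abundant of the list, were at 116 and 107.6 CPM against 140.3 CPM and at 71.6 and 69.7 CPM against 57.9 CPM, and Rnf139 at 70.9 and 54.5 CPM against 54.1 CPM.

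Of 21 other ligases 4 were higher and 2 lower. March11, a membrane ligase of spermatids, was at 785.5 and 770.7 CPM against 487.7 CPM. Its highest class was pachytene to diplotene spermatocytes, at 1593 and 1682 CPM against 1405 CPM (log2 0.18 and 0.26). In elongating and condensing spermatids its log2 folds were 0.77 and 0.86. Herc2 was at 18.7 and 17.5 CPM against 9.95 CPM, and Herc1 at 16.6 and 17.1 CPM against 10.7 CPM. In spermatogonia, their highest class, the log2 folds were 0.61 and 0.31 for Herc2 and -0.03 and -0.05 for Herc1. The part of the cell mix in the differences of these ligases was not tested. Trim42 was the furthest below, at 13.0 and 9.86 CPM against 26.9 CPM, and Asb9 was at 122.6 and 117.9 CPM against 184.9 CPM. March10 and Trim36, abundant in the list, were at 718.3 and 599.8 CPM against 720.5 CPM and at 366.6 and 291.5 CPM against 464.4 CPM. Herc1 matches 1 other gene at its end. Of 15 deubiquitinases 2 were higher. Usp26, an X-linked germ cell enzyme, was at 17.4 and 22.5 CPM against 8.19 CPM over all cells and at 192.9 and 260.2 CPM against 185 CPM in spermatogonia, a class that was 8.83% and 9.72% of cells against 3.95%. In pachytene to diplotene spermatocytes it was at 10.7 and 12.2 CPM against 6.72 CPM (log2 0.60 and 0.78), and the part of the cell mix in its difference was not tested. Usp42 was at 18.3 and 18.5 CPM against 10.8 CPM, and Otub2, the most abundant, at 596.7 and 555 CPM against 872.1 CPM. Usp2 was at 464.6 and 367.2 CPM against 401.7 CPM, and Uchl3, which shares its end with Uchl4, at 226.7 and 240.8 CPM against 168.1 CPM.

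**Figure D4:**
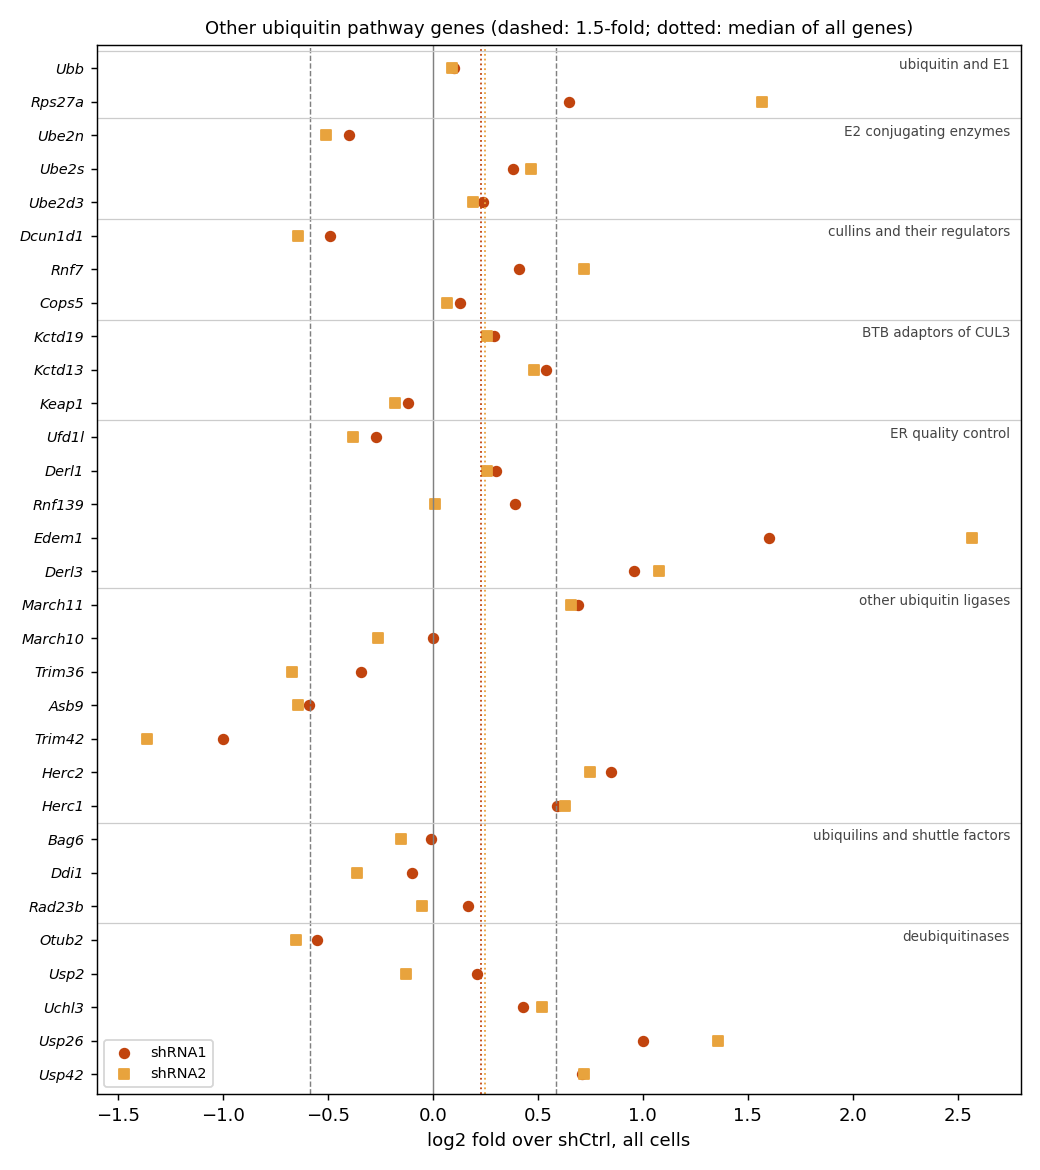
Log2 fold over shCtrl over all cells for the named genes of 8 ubiquitin lists, hairpin 1 as circles and hairpin 2 as squares, with dashed lines at 1.5-fold and dotted lines at the median of all genes. Rps27a, Edem1, Derl3 and Usp26 lie to the right, and Trim42 to the left.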

How the data were processed

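Per the labels' protocols, 10x Genomics 3' V2 libraries of sorted RFP-positive testis cells were sequenced. Per the submitters' processing notes, Cell Ranger 1.3.1, Seurat 2.0.0 and mm10 were used, while no source used here names the annotation, strand setting or cell filter. The authors deposited natural log (ln) values: each gene's UMIs were divided by the cell total, multiplied by 10000, increased by 1 and logged. All 20140203 non-zero values came back as whole UMIs within 0.01, so UMIs were summed per library and class. Only the last digit of the column names tells shRNA1 from shRNA2. If that match were wrong, the hairpins would change places.

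The 9 genes and all lists were chosen with earlier results of these data known. Cells were clustered with scanpy 1.11.5 (2000 variable genes, 30 components, 15 neighbours, Leiden resolution 0.8, igraph 0.11.9) without the 9 genes, the pathway genes and Gm4665. Clusters were named from 14 marker lists, each name needing at least 3 markers raised 1.5-fold, so a class means cells like that class. No cell was removed, and the doublet caller marked 7, 5 and 8 cells of shRNA1, shRNA2 and shCtrl (too few to count as working, so doublets remain). Folds are log2 of CPM plus 1 over the same in shCtrl, intervals of ratios use no pseudocount, and a gene counted if 1.5-fold or more in one direction with both hairpins. A class was compared with at least 50 cells per library. Named are all members, from each pathway list the 3 genes of highest level and those counted, and the 2 genes most like each member, except 3 pathway genes that are not reported here. The counting of genes by fold was tested on simulated counts, while the clustering and naming of cells were not. Matches between transcript ends came from blastn 2.17.0. Other tools were Python 3.11.15, numpy 2.4.6, pandas 2.3.3, scipy 1.17.1, anndata 0.12.19 and matplotlib 3.10.9.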

Additional observations from a re-analysis of the deposited data

Results flagged for a closer look

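Rnf151 stood on different sides of shCtrl in different germ classes, with counting intervals that excluded equality. In pachytene to diplotene spermatocytes it was higher with both hairpins, by log2 folds of 0.14 and 0.10. It was lower in spermatogonia (-0.33 and -0.39), leptotene to zygotene spermatocytes (-0.68 and -0.67), round spermatids (-0.33 and -0.19) and elongating and condensing spermatids (-0.41 and -0.68). In spermatogonia Rnf151 averaged 325.4 CPM, close to the level of non-germ cells. The summed elongating spermatid markers had log2 folds of -0.49 and -0.61 in spermatogonia and -0.69 and -0.78 in leptotene to zygotene spermatocytes. They were at -0.38 and -0.32 in pachytene to diplotene spermatocytes, -0.45 and -0.36 in round and -0.03 and 0.05 in elongating and condensing spermatids. The difference between classes was not tested. Among the 4 pachytene to diplotene clusters, 1 was higher and 1 lower with both hairpins, and over 8 settings the fold of the class ran from -0.11 to 0.18 with hairpin 1 and from -0.14 to 0.13 with hairpin 2.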

How the results depend on the processing

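Depth, 1 library per group and the cell mix limit these results. The count of members 1.5-fold from shCtrl over all cells (1) became 4 with TMM and with median-of-ratios scaling (Rnf133, Rnf148, Rnf151 and Ubqlnl), 2 without the 20 most abundant genes in the totals, and 0 with classes weighted to the control mix, with clusters so weighted (chosen after seeing the data), with mean ln values and at 2-fold. It was 1 under each of the other alternatives run. All folds of Rnf133, Rnf148, Rnf151, Klhl10, Ubqlnl, Herc4 and Ube2j1 over all cells stayed below 0 in 12 settings with either hairpin, while Cul3 changed sign with both hairpins and Ube2b with hairpin 1 (0.03 with clusters weighted). The pathway count (13) became 7 with a pseudocount of 10 CPM, 3 with classes and 2 with clusters weighted, 5 with mean ln values and 2 at 2-fold. In spermatogonia the count (1) became 3 at Leiden resolution 0.4 and 3 after thinning, and 0 with clusters weighted (Rnf148 at -1.26 and -0.57, against a limit of 0.585) or at 2-fold. In leptotene to zygotene spermatocytes the count (3) became 0 at 2-fold. In pachytene to diplotene spermatocytes (0) it became 1 after thinning, and in round spermatids (0) 1 after thinning and 1 with median-of-ratios scaling. Weighting removes differences in mix by construction, 2-fold is a stricter limit, and for the other settings the cause was not tested. With the 9 genes kept in the clustering, and at Leiden resolution 1.5, spermatogonia of shCtrl fell below 50 cells and gave no value. At own depth 8 members, and in cells thinned to 10000 UMIs 7, had a lower share of cells with a UMI in both knockdown libraries; Cul3 was the difference. No paired analysis was possible because each group is 1 library.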
